A study of Homo sapiens with 16 samples.

Results

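H3K27me3 was mapped in BE2C cells in which the histone demethylase gene KDM6B had been knocked down by siRNA, and the samples were compared with cells that received a control siRNA. BE2C is an established human neuroblastoma line with amplified MYCN. The members are 4 of the 16 samples of the series, 2 of the control (siCtrl) and 2 of the knockdown (siKDM6B33), all harvested at 72 h and profiled by CUT&Tag with the same H3K27me3 antibody. All 4 samples come from a single cell line, and the knockdown rests on a single siRNA. The rule asks which genes, chromosomes and domain sizes gained or lost called H3K27me3. The other 12 samples hold H3K4me1 from the same knockdown and both marks after treatment with the KDM6 inhibitor GSK-J4 or its solvent DMSO.

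H3K27me3 is written by Polycomb repressive complex PRC2, whose catalytic subunit is EZH2, and is removed by the demethylases KDM6A and KDM6B. The mark lies in broad domains over silent developmental regulators, among them the HOX clusters, and at lower density over other inactive chromatin. CUT&Tag directs a transposase to the antibody-bound chromatin and so reads the mark from the inserted fragments. Islands and narrow peaks were deposited for each sample. An island is a run of enriched 200-bp windows called by SICER, which is made for broad marks, and a narrow peak is a local maximum called by MACS2. The length covered by islands measures called territory, not the amount of mark per nucleosome.

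The island lists of the 4 samples were merged wherever they overlapped, which gave 17393 regions on chromosomes 1 to 22 and X. A region was counted as kept where all 4 samples had an island in it, as gained where both siKDM6B33 samples and no siCtrl sample did, and as lost where the reverse held. To show what kind of DNA these classes hold, the 200 bases (hg19, plus strand, 5′ to 3′) around the highest narrow-peak summit are given for the 2 widest gained and the 2 widest lost regions that had such a stretch outside annotated exons, and for 1 of the widest kept regions. Capitals mark CpG dinucleotides.
Gained GSG1L region, chr16:28037299-28037498: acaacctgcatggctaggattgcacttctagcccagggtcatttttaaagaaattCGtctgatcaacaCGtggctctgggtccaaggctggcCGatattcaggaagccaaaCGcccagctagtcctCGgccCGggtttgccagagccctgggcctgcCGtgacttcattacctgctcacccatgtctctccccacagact
Gained region near GGTLC2, chr22:23039971-23040170: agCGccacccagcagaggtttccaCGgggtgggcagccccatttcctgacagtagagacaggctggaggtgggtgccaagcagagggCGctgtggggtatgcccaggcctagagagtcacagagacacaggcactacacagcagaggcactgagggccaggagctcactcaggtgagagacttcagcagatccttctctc
Lost PKP1 region, chr1:201276631-201276830: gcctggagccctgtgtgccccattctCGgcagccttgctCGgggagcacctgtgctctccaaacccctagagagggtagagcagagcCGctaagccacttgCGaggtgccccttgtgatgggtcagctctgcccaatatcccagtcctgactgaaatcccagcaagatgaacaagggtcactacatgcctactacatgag
Lost region near EPAS1, chr2:46480039-46480238: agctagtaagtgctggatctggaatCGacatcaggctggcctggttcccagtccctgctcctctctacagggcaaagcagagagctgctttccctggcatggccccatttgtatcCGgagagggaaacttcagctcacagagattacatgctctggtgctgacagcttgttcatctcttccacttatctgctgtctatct
Kept EN2 region, chr7:155174245-155174444: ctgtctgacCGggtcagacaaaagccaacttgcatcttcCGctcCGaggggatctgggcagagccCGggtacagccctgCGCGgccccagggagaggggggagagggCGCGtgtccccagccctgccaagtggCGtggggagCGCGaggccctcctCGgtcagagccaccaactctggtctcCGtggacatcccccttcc
The gained region in GSG1L spanned 19.8 kb, of which islands covered 17.6 and 15.2 kb in the siKDM6B33 samples and 0 kb in both siCtrl samples. The gained region on chromosome 22 lay 49.0 kb from GGTLC2 and was covered over 12.6 and 19.2 kb after knockdown. The lost region in PKP1, which encodes the desmosome protein plakophilin 1, was covered over 7.0 and 8.80 kb in siCtrl and 0 kb in siKDM6B33, and that near EPAS1 over 6.40 and 6.00 kb against 0 kb. The kept region was the 183-kb domain over the homeobox gene EN2. The 200-bp stretches hold 7 and 3 CpG in the gained regions, 4 and 2 in the lost regions and 13 in the kept region.

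The 2 siCtrl lists held 10551 and 10587 islands and the 2 siKDM6B33 lists 15941 and 15768. Coverage of genes correlated at 0.960 between the siCtrl samples and 0.956 between the siKDM6B33 samples, across 5676 genes, which are not independent replicates. In called bases replicates were less alike: the length called in both, divided by the length called in either, was 0.637 for siCtrl and 0.636 for siKDM6B33. The files hold no read totals. The lowest background solved from the narrow-peak statistics was 0.0395 and 0.0401 tags per position in siCtrl and 0.0539 and 0.0529 in siKDM6B33, so both knockdown samples had a background 1.34 times that of the controls. More tags let a caller reach its threshold over more of the genome, and the part of this difference in the results below was not tested. For that reason, counts of regions, genes and chromosomes are also given after the lists were cut to equal covered length (islands of highest score kept) or to an equal number of islands (widest kept). Cutting to equal length by score keeps broad islands and drops narrow islands in the longer lists, which removes marks from genes that carry narrow islands. With 2 samples against 2, the smallest p an exact two-sided permutation test can give is 0.333, so no difference between groups could pass 0.05. The study calls the replicates biological, and the labels do not say what separated them (culture, passage or day).

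The targeted gene itself carried no H3K27me3 island. Coverage of KDM6B (chromosome 17, 7737535 to 7758114), extended by 5 kb at both ends, was 0% in all 4 samples. Transcripts are not measured in these files, so the knockdown cannot be checked here. EZH2 and SUZ12, subunits of PRC2, were also at 0% in all samples, and EED, the third core subunit, was covered over 5.02% and 7.99% in siCtrl and 10.0% and 0.685% in siKDM6B33, with overlapping groups. MYCN was covered over 95.6% in every sample. GACAT3, the long non-coding gene beside MYCN on the amplicon, was at 98.1% and 98.8% in siCtrl and 100% in both siKDM6B33 samples. CYRIA, a further gene of that interval, had 3.47% and 3.00% in siCtrl and 7.72% and 10.2% after knockdown. NAV2 was at 2.12% and 2.42% in siCtrl and 1.02% and 1.04% in siKDM6B33, and E2F8, a repressor-type member of the E2F family, was at 0% in all 4 samples. CDKN1A, which encodes the CDK inhibitor p21, had 11.5% and 14.4% against 12.5% and 14.4%, so its groups overlapped.

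Islands were broader in both knockdown samples. The median width was 3.80 kb in both siCtrl samples and 4.2 kb in both siKDM6B33 samples, and the mean was 5.09 and 5.11 kb against 5.63 and 5.54 kb. Islands of at least 20 kb numbered 196 and 190 in siCtrl and 354 and 323 in siKDM6B33, and they covered 6.08 and 6.07 Mb against 10.9 and 10.2 Mb. The group means of that length were 6.07 ± 0.00877 Mb and 10.6 ± 0.445 Mb (SD, n = 2 each), and the groups did not overlap (exact permutation test, p = 0.333). These broad islands took 11.3% ± 0.0870 of the covered length in siCtrl and 11.9% ± 0.262 in siKDM6B33 (SD, n = 2 each, exact permutation p = 0.333), a difference of 0.655 percentage points in share and of 4.48 Mb in length. The difference in share depended on how the lists were scaled. Broad islands at equal covered length took 11.3% in both siCtrl samples and 20.3% and 19.1% in siKDM6B33, a difference of 8.36 points, and with islands within 2 kb joined the difference was 5.22 points.

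**Figure D1:**
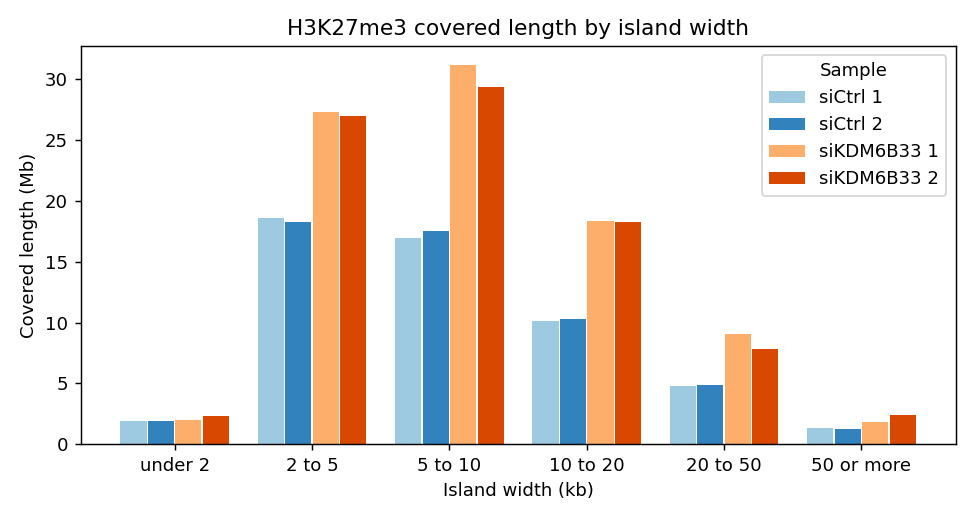
Covered length (Mb, vertical axis) in islands of 6 width classes (kb, horizontal axis), with a bar for each of the 4 samples. Islands of 5 to 10 kb hold the largest added length, 13 Mb between the group means, and islands under 2 kb the smallest, 0.270 Mb.

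Islands of 5 to 10 kb covered 17.2 Mb on average in siCtrl and 30.3 Mb in siKDM6B33, a ratio of 1.76. The ratio was 1.80 for islands of 10 to 20 kb, 1.76 for 20 to 50 kb and 1.66 for 50 kb or more, and it was lower in narrow islands, at 1.47 for 2 to 5 kb and 1.14 for under 2 kb. The share of covered length in islands of 2 to 5 kb was 34.2% in siCtrl and 30.6% in siKDM6B33, as means of 2 samples. At 50 kb or more, 19 and 16 islands were called in siCtrl and 23 and 33 in siKDM6B33, and their share of the length, 2.44% and 2.27% against 2.01% and 2.75%, overlapped between groups.

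Of the 17393 merged regions, 6742 were kept, 3528 were gained (20.3%) and 300 were lost (1.72%). The remaining 6823 were called in some other combination of samples. This balance turned with the scaling of the lists. At equal covered length 192 of 10650 regions were gained (1.80%) and 2296 lost (21.6%), and at an equal number of islands 1685 of 14630 were gained (11.5%) and 1517 lost (10.4%). Leaving out a sample, which makes a call easier, gave 4243 gained and 724 lost regions without siCtrl 1, 4290 and 767 without siCtrl 2, 5817 and 494 without siKDM6B33 1, and 6004 and 489 without siKDM6B33 2. The values that follow are for the lists as deposited. Gained regions were of moderate size, with a median of 4.80 kb, quartiles of 3.40 and 6.40 kb and a widest of 20.0 kb. Lost regions were smaller, with a median of 3.00 kb and a widest of 9.0 kb, and kept regions larger, with a median of 7.60 kb. Bases covered in both siKDM6B33 samples and in neither siCtrl sample came to 20.5 Mb, and 42.4% of them lay inside regions that also held a siCtrl island, that is, as extensions of a region called in the controls. That share was 80.0% at equal covered length. Bases lost in the same sense came to 1.63 Mb, 64.0% of them inside regions still called after knockdown. A gained region lay at a median of 30.5 kb from the nearest kept region, and 29.5% lay within 10 kb of one. The same distances for lost regions were 45.5 kb and 27.3%.

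The widest gained regions were a 20.0-kb region in CACNA1E on chromosome 1, a 20.0-kb region 93.6 kb from TTC32 on chromosome 2, the 19.8-kb region in GSG1L on chromosome 16, a 19.4-kb region 22 kb from ADPGK on chromosome 15 and a 19.2-kb region 346 kb from SLC4A3 on chromosome 2. CACNA1E encodes a voltage-gated calcium channel, and GSG1L an auxiliary subunit of AMPA receptors. Islands covered 18.2 and 18.6 kb of the CACNA1E region (chr1:181350601-181370600) after knockdown. The widest lost regions were a 9.0-kb and an 8.80-kb region in DSCAML1, a neuronal cell adhesion gene on chromosome 11. The former was covered over 7.40 and 8.0 kb in siCtrl and the latter over 3.60 and 6.60 kb, each with 0 kb after knockdown. The PKP1 region, an 8.0-kb region in ENTHD1 on chromosome 22 (5.80 and 8.0 kb in siCtrl) and the region near EPAS1 followed.

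More kept regions were longer than shorter after knockdown. In 2700 of the 6742 (40.0%) both siKDM6B33 samples were covered over a greater length than both siCtrl samples, and in 610 (9.05%) over a smaller length. Kept regions covered 48.0 and 48.2 Mb in siCtrl and 59.3 and 58.4 Mb in siKDM6B33. The median ratio of length was largest for regions that were short in the controls: 1.24 below 2 kb, 1.19 at 2 to 5 kb, 1.12 at 5 to 10 kb, 1.11 at 10 to 20 kb, 1.08 at 20 to 50 kb and 1.02 at 50 kb or more. The share of regions longer in both siKDM6B33 samples ran the other way. It was 34.2% below 2 kb, 38.4% at 2 to 5 kb, 38.5% at 5 to 10 kb, 47.1% at 10 to 20 kb and 53.2% at 20 to 50 kb. Of the 35 regions of 50 kb or more, 21 were longer in both siKDM6B33 samples (60.0%) and 4 shorter. The widest kept regions differed little between samples. On chromosome 2, a 190-kb region 127 kb from CYRIA was covered over 184 and 188 kb in siCtrl and 188 and 189 kb in siKDM6B33. The MYCN domain (195 kb) was covered over 193, 194, 195 and 195 kb, the EN2 domain over 170, 175, 178 and 176 kb, the RBFOX3 domain on chromosome 17 over 139, 142, 142 and 144 kb and the HOXB domain over 110, 109, 112 and 112 kb (siCtrl 1, siCtrl 2, siKDM6B33 1 and siKDM6B33 2). MYCN is amplified in this line, and its summit lay at 10753 and 11145 times background in siCtrl and 9729 and 9945 in siKDM6B33. Copy number and density of the mark cannot be told apart there.

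Among kept regions, a domain in SLC24A4 on chromosome 14 was extended most. SLC24A4 encodes a potassium-dependent sodium-calcium exchanger, and its 63.0-kb region (chr14:92762001-92825000) was covered over 22.8 and 11.2 kb in siCtrl and 52.4 and 57.2 kb in siKDM6B33. The next was a 54.2-kb region on chromosome 8 (chr8:47009001-47063200), 1110 kb from SPIDR. It had 22.2 and 21.6 kb in siCtrl and 52.0 and 51.4 kb in siKDM6B33. A 67.4-kb region over the type II keratin genes KRT3, KRT4, KRT79 and KRT78 had 32.6 and 31.6 kb against 64.8 and 61.4 kb. A further region of chromosome 8 (chr8:47084801-47178200), 995 kb from SPIDR, had 61.8 and 53.4 kb against 90.6 and 93.4 kb. A region 83.6 kb from SHH, the morphogen gene on chromosome 7, had 8.80 and 7.40 kb against 37.6 and 41.2 kb. A region on the short arm of chromosome 8 holding the neutrophil defensin gene DEFA4 had 13.8 and 17.4 kb against 42.0 kb in both siKDM6B33 samples. By the gap between nearest samples, a region in TAFA5 on chromosome 22 came before that of DEFA4.

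The kept region with the largest contraction lay on chromosome 5, 5.27 kb from GFRA3, a receptor of the GDNF family. It spanned 26.2 kb (chr5:137556601-137582800) and was covered over 22 and 25.4 kb in siCtrl and 4.2 and 7.80 kb in siKDM6B33. The domain of SLC32A1, the vesicular GABA transporter gene on chromosome 20, had 65.6 and 63.0 kb against 54.0 and 53.8 kb. At SPTB, the gene of erythrocyte beta-spectrin, 13.6 and 14.6 kb were covered in siCtrl and 7.40 and 3.20 kb after knockdown. At GATA4, a zinc-finger factor of heart and gut development, the values were 9.40 and 10.6 kb against 3.20 and 2.80 kb. The groups did not overlap in these 4 regions, which were chosen for that difference.

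Gained regions were then counted in windows of 1 Mb. The window on chromosome 5 from 2000001 to 3000000 (which holds IRX2) had 23 gained regions, and the window on chromosome 21 from 39000001 to 40000000 had 22. That window holds the potassium channel genes KCNJ6 and KCNJ15 and the ETS factor gene ERG, and was covered over 32.6 and 35.8 kb in siCtrl and 203 and 195 kb in siKDM6B33. On chromosome 10 from 132000001 to 133000000 (TCERG1L) there were 21, and on chromosome 20 from 23000001 to 24000000, where the cystatin genes lie, there were 20, with 18.0 and 14.2 kb covered against 179 and 188 kb. Lost regions numbered at most 6 in a window. Those 6 lay on chromosome 17 from 46000001 to 47000000, which includes the HOXB cluster and was covered over 404 and 414 kb in siCtrl and 446 and 420 kb in siKDM6B33, so the window as a whole was longer after knockdown. The window on chromosome 8 from 11000001 to 12000000, which holds GATA4 and the beta-defensin gene DEFB135, had 4 and went from 112 and 109 kb to 92.2 and 95.8 kb.

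Every chromosome had more covered length in both siKDM6B33 samples than in the siCtrl samples, at 1.64 times the control mean over all 23. The ratio ran from 1.31 on chromosome 17 to 2.22 on chromosome 21. Taken as a share of the sample's covered length, which removes the difference in total, 10 chromosomes were higher in both siKDM6B33 samples (43.5%) and 10 were lower in both (43.5%), and 3 overlapped. Chromosome 17 held 5.97% and 5.98% of the covered length in siCtrl and 4.76% and 4.79% in siKDM6B33. Chromosome 21 held 1.46% and 1.53% against 2.04% and 2.00%. Chromosomes 8 (4.81% and 4.83% against 5.34% and 5.36%) and 20 (4.08% and 4.26% against 4.62% and 4.66%) were also higher, and chromosomes 11 (5.93% and 5.82% against 5.45% and 5.44%) and 19 (4.76% and 4.68% against 4.25% and 4.26%) lower. Chromosome 11 did not keep this order at equal covered length, where its shares overlapped. At all 3 list lengths, 6 chromosomes stayed higher (2, 8, 12, 13, 20 and 21) and 7 stayed lower (1, 4, 9, 17, 18, 19 and X).

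**Figure D2:**
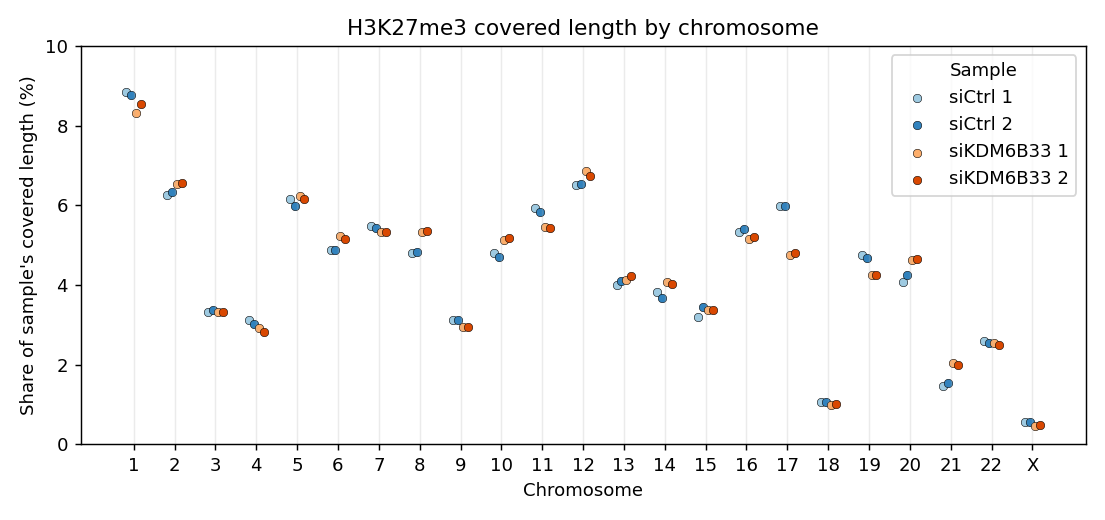
Share of each sample's covered length (percent, vertical axis) on each chromosome (horizontal axis), with a point for each of the 4 samples. Chromosome 17 shows the largest drop in share, from 5.97% and 5.98% to 4.76% and 4.79%, and chromosome 21 lies higher in both siKDM6B33 samples.

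Chromosome 21 had 99 gained regions and 88 kept regions, that is, 112 gained per 100 kept, and 0 lost. The next highest was chromosome 20, with 182 gained regions, 67.7 per 100 kept. Chromosome 17 had 107 gained regions, 32.5 per 100 kept, and 20 lost. Chromosomes 22 and X were lower still, at 31.2 per 100 kept each. Over all chromosomes, 3528 regions were gained and 6742 kept. The X chromosome had the least H3K27me3 in islands, at 0.195% and 0.193% of its length in siCtrl and 0.271% and 0.274% in siKDM6B33. Within chromosome 17, the difference was uneven. The 10-Mb stretch from 40000001 to 50000000, which includes the HOXB domain, was covered over 869 and 873 kb in siCtrl and 906 and 877 kb in siKDM6B33, a ratio of 1.02, and the stretch from 70000001 to 80000000 had a ratio of 1.02 as well. The stretch from 60000001 to 70000000 went from 99.8 and 104 kb to 287 and 260 kb, a ratio of 2.68. Of 153 such stretches of the genome with at least 100 kb covered in siCtrl, 149 were longer in both siKDM6B33 samples and 1 was shorter, that on chromosome 1 from 20000001 to 30000000 (166 and 162 kb against 149 and 156 kb). The stretch lengths were chosen after the values were seen.

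For genes, coverage was taken as the percentage of the gene body, extended by 5 kb at both ends, that lay in islands, over 20090 protein-coding genes. A gene was called gained where the lower siKDM6B33 value exceeded the higher siCtrl value by at least 10 percentage points, and lost where the reverse held. By this rule 634 genes were gained (3.16%) and 53 lost (0.264%). Leaving out any of the 4 samples, which makes a call easier, gave 99 to 118 lost. Neighbours share islands, and the gained genes fall into 554 separate stretches and the lost genes into 47. At equal covered length the balance turned, with 184 gained (0.916%) and 310 lost (1.54%), and at an equal number of islands 442 were gained (2.20%) and 175 lost (0.871%). The call held at all 3 list lengths for 183 of the 634 gained genes and for all 53 lost genes. Since cutting removes islands from the knockdown lists, a lost gene can hardly leave its call under it, and a gained gene can. The gained gene nearest to the limit was LGI4 (10.0 points), and C1QTNF8 (9.99 points) stayed outside it. The lost gene nearest to the limit was CCDC89 (10.0 points), and PGRMC1 (9.88 points) stayed outside it.

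**Figure D3:**
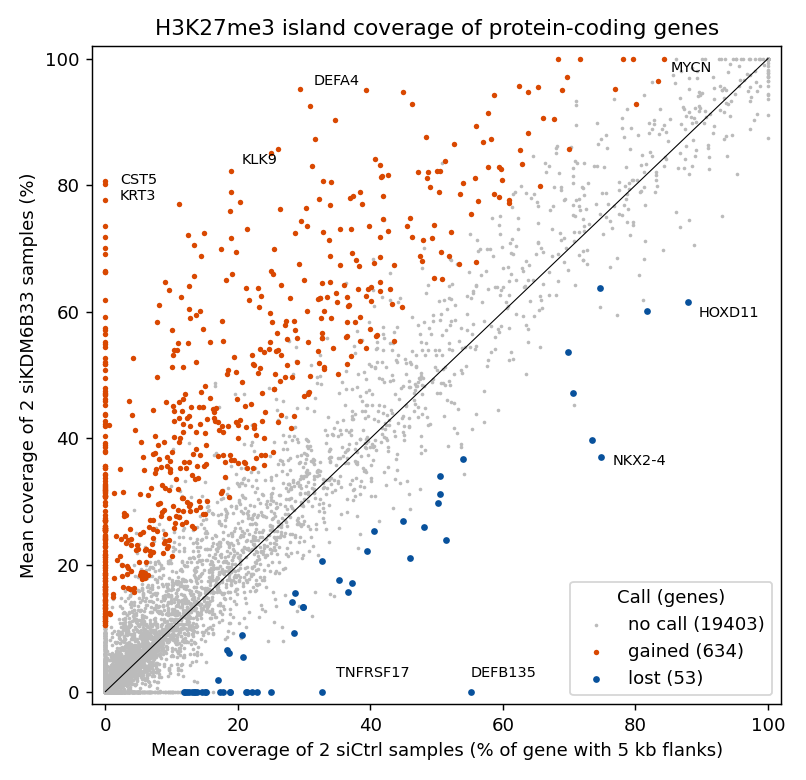
Mean island coverage in the 2 siKDM6B33 samples (vertical axis) against the 2 siCtrl samples (horizontal axis), in percent of the gene extended by 5 kb at both ends, with a point per protein-coding gene. The 634 gained genes lie above the diagonal, 166 of them at 0% in siCtrl, and the 53 lost genes below it, 22 of them at 0% after knockdown.

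Genes already partly covered were gained most often. Of 15134 genes with no island in either siCtrl sample, 166 (1.1%) were gained. The share was 15.4% of 1086 genes at 10% to 25% mean control coverage, 20.3% of 703 genes at 25% to 50% and 15% of 287 genes at 50% to 75%. Of the 263 genes above 75%, 6 were gained (2.28%) and 2 lost (0.760%), where there is less room for a gain of 10 points.

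The genes with the largest gains included secreted proteins, a keratin and an olfactory receptor. CST5, which encodes a cystatin protease inhibitor of saliva and tears, was at 0% in both siCtrl samples and at 79.5% and 81.0% in siKDM6B33. KRT3, a keratin of the corneal epithelium, went from 0% and 0% to 70.0% and 85.2%. DCD, the gene of the sweat-gland antimicrobial peptide dermcidin, went from 0% and 0% to 65.3% and 78.2%. SERPINA4, the plasma protease inhibitor kallistatin, went from 0% and 0% to 62.0% and 70.6%. KLK9, a kallikrein protease, had 16.3% and 21.5% in siCtrl and 83.4% and 81.1% in siKDM6B33, and the defensin DEFA4 had 32.5% and 26.1% against 100% and 90.4%. The olfactory receptor OR1N1 (0% and 0% against 65.6% and 74.7%) and a further cystatin, CST4 (0% and 0% against 67.7% and 70.7%), were among the 12 largest as well. These calls held at all 3 list lengths for CST5, KRT3, DCD, SERPINA4, KLK9, DEFA4, OR1N1 and CST4. The others of the 12 were AP000695.1, OR5BS1P, SSTR4 and C1orf210, which were called at an equal number of islands and had no call at equal covered length. Of these, the somatostatin receptor gene SSTR4 went from 0% and 0% to 57.4% and 75.2%. Narrow-peak summits at the top genes were low or absent. CST5 and KRT3 had one only in the first siKDM6B33 sample, at 111 times background, and CST4 had none in any sample. KLK9 (149 and 151) and DEFA4 (167 and 151) had one in both siKDM6B33 samples. Of all gained regions, 37.2% and 37.0% held a narrow peak in the siKDM6B33 samples, against 79.0% and 79.2% of kept regions.

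Several of these genes sit in families of neighbouring copies, which were therefore looked at as a whole after their values had been seen. All 10 clade A serpin genes of chromosome 14 were gained (7 at equal covered length). Their mean coverage was 8.15% and 15.4% in siCtrl and 54.3% and 55.6% in siKDM6B33. Of 27 type II keratin genes of chromosome 12, 17 were gained (13 at equal covered length), among them KRT77 at 51.8% and 40.6% against 90.0% and 95.8%. Of 11 cystatin genes of chromosome 20, 7 were gained (3 at equal covered length), and of 15 kallikrein genes of chromosome 19, 8 were gained (6 at equal covered length). Of 18 CC chemokine genes of chromosome 17, 9 were gained (5 at equal covered length). CCL2, which attracts monocytes, went from 0% and 0% to 49.5% and 68.7%, a call that was absent at equal covered length. The S100 genes of chromosome 1 had 4 of 15 gained (2 at equal covered length), including S100A12 at 33.7% and 18.5% against 86.6% and 84.9%. None of the genes in these 6 families was lost in the lists as deposited, although 1 S100 gene was lost at equal covered length. Members of a family lie near each other and some share islands, so their calls are not independent. Over all genes, 3.16% were gained, and 0.916% at equal covered length.

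The same counts were made in lists drawn up by function, to be read against the shares over all genes: 3.16% gained and 0.264% lost as deposited, and 0.916% and 1.54% at equal covered length. Of 183 keratin and cornified-envelope genes, 30 were gained (16.4%) and 0 lost. At equal covered length 17 were gained and 3 lost, and at an equal number of islands 25 and 1. LCE5A, a late cornified envelope gene, had 30.4% and 32.1% in siCtrl and 81.3% and 84.9% in siKDM6B33. Of 127 cytokine genes, 22 were gained (17.3%) and 2 lost, the balance turning to 6 against 7 at equal covered length, and the lost genes were the chemokines CCL28 (18.8% and 22.7% against 3.93% and 6.99%) and CXCL17 (29.6% and 27.2% against 15.8% and 2.83%). Of 414 olfactory receptor genes, 17 were gained (4.11%, close to the 3.16% of all genes) and 0 lost, turning to 2 against 7 at equal covered length. Of 28 antigen-presentation genes, 2 were gained, and 1 at equal covered length. They were CIITA, the master regulator of MHC class II genes (17.3% and 20.3% against 39.2% and 35.7%), and HLA-DQB1 (14.8% and 14.8% against 48.6% and 41.2%), whose reads can be shared with its paralogs and which had no call at equal covered length.

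Genes of channels, receptors and neuronal wiring had between 1.89% and 10.2% gained per list, against 3.16% of all genes, so that the lists of synaptic adhesion, glutamate and GABA receptor and axon guidance genes lay near that share. Of 138 voltage-gated channel genes, 13 were gained (9.42%) and 0 lost, and 4 were gained and 2 lost at equal covered length. CACNA1E had 8.42% and 10.2% in siCtrl and 36.9% and 37.3% in siKDM6B33, and the potassium channel gene KCNK18 had 13.2% and 9.69% against 67.6% and 57.0%. Of 88 amine and peptide receptor genes, 9 were gained (10.2%) and 0 lost, with 2 gained and 2 lost at equal covered length. MC3R, a melanocortin receptor, had 25.3% and 12.6% against 71.0% and 72.2%. Of 55 glutamate and GABA receptor genes, 2 were gained, GABBR2 (11.5% and 15.6% against 36.2% and 30.9%) and GRIN1 (38.1% and 40.6% against 55.5% and 53.0%), and 1 was lost, the metabotropic receptor GRM2 (11.1% and 13% against 0% and 0%). At equal covered length none of that list was gained and 1 was lost. Of 53 synaptic adhesion genes, 1 was gained, CADM3 (31.4% and 26.9% against 71.7% and 63.5%), with 1 gained and 2 lost at equal covered length. The 69 axon guidance genes had 3 gained and 0 lost (1 against 2 at equal covered length), led by the guidance ligand NTN1 (7.23% and 6.87% against 24.6% and 22.1%).

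**Figure D4:**
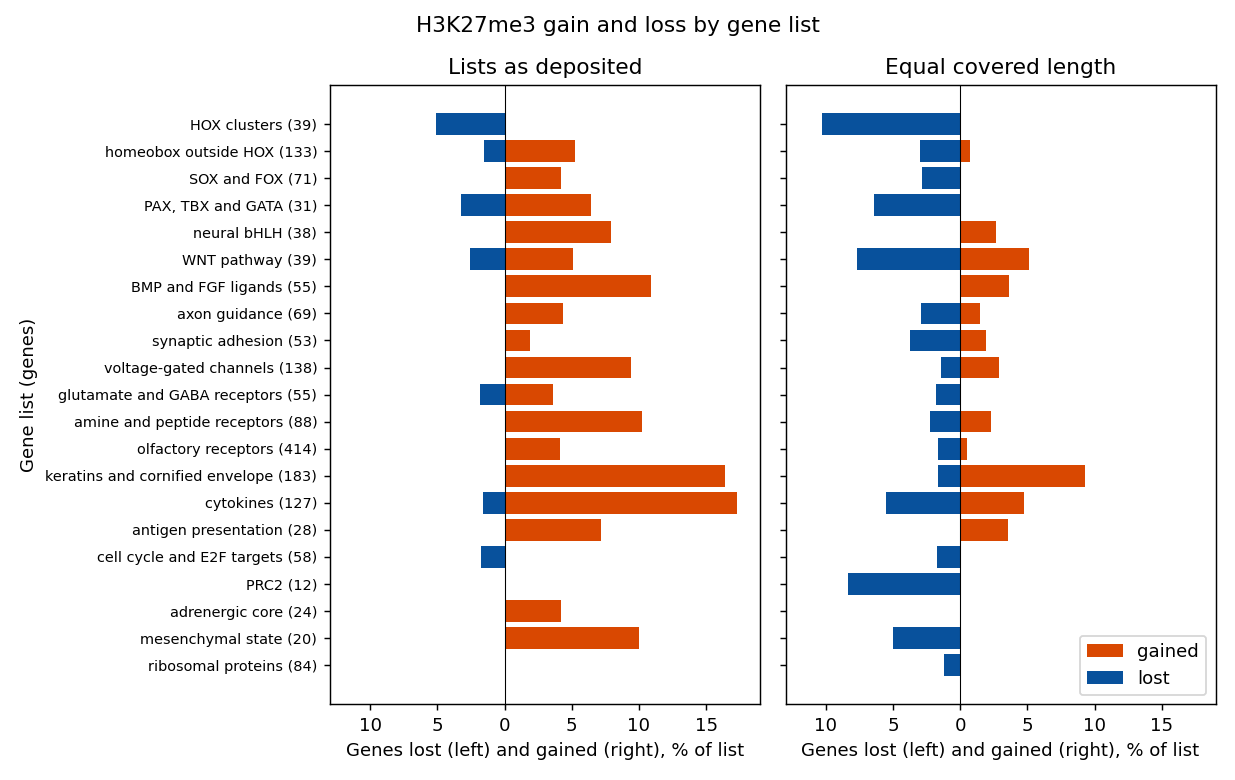
Share of each gene list lost (blue, to the left) and gained (orange, to the right), in percent of the list, for the lists as deposited (left panel) and at equal covered length (right panel). Lists with no call in either panel are left out, and list sizes stand in parentheses. Keratin and cornified-envelope genes have 17 gained against 3 lost in the right panel, while cytokines turn to 6 against 7.

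The HOX clusters, the classical PRC2 targets, had 30 of 39 genes with an island in all 4 samples and none without siCtrl coverage that acquired it. Of the 39 genes, 0 were gained and 2 were lost (5.13%), with 0 and 4 at equal covered length and 0 and 3 at an equal number of islands. Mean coverage over HOXA genes was 98.9% and 99% in siCtrl and 96.6% and 97.1% in siKDM6B33, and over HOXB genes 95.3% and 97.0% against 96.8% and 97.3%. The lost genes were neighbours in the HOXD cluster. HOXD11 had 86.6% and 89.2% in siCtrl and 58.3% and 64.7% in siKDM6B33, and HOXD10 had 45.8% and 43.9% against 24.6% and 29.3%. HOXD9, HOXD8, HOXD4, HOXD3 and HOXD1 had 0% in every sample, so the reduction lay at the edge of the marked part of the cluster, whose other members HOXD13 (89.4% and 92.4% against 87.9% and 84.9%) and HOXD12 (82.7% and 92.1% against 81.1% and 84.2%) remained covered.

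Other homeobox genes numbered 133, of which 7 were gained (5.26%, against 3.16% of all genes) and 2 lost, turning to 1 against 4 at equal covered length, where 0.916% of all genes were gained and 1.54% lost. The lost genes were NKX2-4 (77.3% and 72.4% against 32.9% and 41.1%) and the motor neuron factor MNX1 (74.2% and 75% against 63.7% and 63.7%). The gained genes with the largest difference were POU3F4 (0% and 0% against 54.2% and 30.4%) and BARX2 (8.63% and 8.40% against 37.3% and 28.1%), neither of which was called at equal covered length. Of 71 SOX and FOX genes, 3 were gained and 0 lost, against 0 and 2 at equal covered length. FOXJ1, a regulator of motile cilia, had 0% and 0% against 28.2% and 22.8%. Of 31 PAX, TBX and GATA genes, 2 were gained, PAX3 (40.2% and 35.9% against 64.1% and 63.2%) and PAX8 (13.4% and 8.5% against 27.4% and 36.6%), and 1 was lost, GATA4 (26.7% and 30.5% against 15% and 16.3%), with 0 and 2 at equal covered length. Of 38 genes of bHLH factors (the list named neural bHLH), 3 were gained and 0 lost, including TWIST2 (34.9% and 37.6% against 57.3% and 54.7%). Of these, 1 kept its call at equal covered length, TAL1 (56.3% and 55.5% against 68.6% and 67.1%).

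Among signalling genes, 6 of 55 BMP and FGF ligands were gained (10.9%) and 0 lost, with 2 and 0 at equal covered length. The ligand gene BMP6 had 16.8% and 16.2% in siCtrl and 44.3% and 41.1% in siKDM6B33. Of 39 WNT pathway genes, 2 were gained and 1 lost, with 2 and 3 at equal covered length. WNT7A (45.0% and 54.2% against 75.8% and 71.5%) and the receptor FZD10 (82.8% and 85.8% against 100% and 100%) were gained, and the ligand WNT8A (14.4% and 21% against 0% and 0%) was lost.

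Genes that cycling cells express carried almost no islands. Of 58 cell cycle and E2F target genes, 2 had an island in any sample, 0 were gained and 1 was lost. That gene was CDK4, the kinase that drives G1 progression, at 12% and 13.1% in siCtrl and 0% and 0% in siKDM6B33. CDK4 still had narrow-peak summits in all samples, of 101 and 99.7 times background in siCtrl and 92.8 and 56.7 in siKDM6B33. Its neighbour MARCHF9, named after its values were seen, was lost as well (30.0% and 40.5% against 19.6% and 15.6%), and no start of CDK4 lost an island. CCNE1, BUB1, BIRC5 and AURKB had 0% in every sample. No gene was called among 8 CDK inhibitor, 12 PRC2, 15 KDM6 and KMT2, 84 ribosomal protein, 246 zinc finger genes of chromosome 19, 53 clustered protocadherin or 51 histone genes in the lists as deposited, the last 2 lists having no island in any sample. At equal covered length 1 PRC2 gene and 1 ribosomal protein gene were lost, and at an equal number of islands 1 CDK inhibitor and 1 ribosomal protein gene.

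Among the 53 lost genes, the largest difference was at DEFB135, a beta-defensin gene on chromosome 8, with 51.9% and 58.4% in siCtrl and 0% in both siKDM6B33 samples. TNFRSF17, the plasma cell receptor BCMA, went from 28.0% and 37.3% to 0% and 0%, and FABP2, an intestinal fatty acid-binding protein, from 21.5% and 24.2% to 0% and 0%. ANKRD34B had 69.7% and 71.4% against 49.7% and 44.6%, GPR32 50.3% and 46.0% against 28.3% and 23.7%, and CH25H, the cholesterol 25-hydroxylase gene, 59.9% and 42.8% against 22.2% and 25.7%. TMED9, CALHM6, ZNF853 and PPP1R3E, also among the 12 largest, were at 0% in both siKDM6B33 samples, and the remaining members of the 12, NKX2-4 and HOXD11, are given above. Narrow-peak summits remained in both siKDM6B33 samples at TMED9 (167 and 94.5 times background) and PPP1R3E (92.8 and 94.5). CALHM6 had one only in the first siKDM6B33 sample (74.3), and ZNF853 had none in either. Beyond the naming rule, and chosen after the values were seen, BMI1, which encodes a subunit of Polycomb complex PRC1, was lost (19.7% and 14.8% against 0% and 0%), together with COMMD3 beside it (18.7% and 11.5% against 0% and 0%). Of 10 globin genes, a list added after the values were seen, the embryonic gene HBZ (15.2% and 18.8% against 1.39% and 2.31%) and HBM (68.0% and 71.5% against 54.9% and 52.3%) were lost and 0 were gained. HBZ and HBM overlap, so their calls are not independent. Over all genes, 0.264% were lost.

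At transcription starts, 317 genes had a start with an island within 1 kb in both siKDM6B33 samples and in neither siCtrl sample (1.58%), and 103 genes had the reverse (0.513%). The balance turned at equal covered length, with 46 gained and 779 lost, and at an equal number of islands, with 135 and 750. Of the merged regions, 7.91% of gained, 30.0% of lost and 44.3% of kept regions had a protein-coding start within 1 kb. Of the gained regions, 55.1% lay outside protein-coding genes and 37.0% inside a gene without a start. Regions called in other combinations of samples were similar, with 52.1% outside, 36.6% inside a gene without a start and 11.4% with a start. CST5, KRT3, CST4, OR1N1, DCD, SERPINA4, SSTR4 and C1orf210 gained an island at a start, and DEFB135, TNFRSF17, CALHM6, ZNF853 and GRM2 lost one.

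The markers of neuroblastoma cell states were checked for the mark. Adrenergic cells express factors such as HAND2 and GATA3, and mesenchymal-state cells express factors such as PRRX1. Of 11 adrenergic markers, 0 had an island in either siCtrl sample, 2 had one in the first siKDM6B33 sample and 1 in the second. PHOX2A, HAND2, GATA2, GATA3, ISL1, TBX2 and CHGA were at 0% in all 4 samples. DBH, the enzyme that makes noradrenaline, was gained (0% and 0% against 13.3% and 10.3%), and TH, which catalyses the first step of that pathway, had 22.4% in the first siKDM6B33 sample and 0% in the others. Of 15 mesenchymal markers, 10 had an island in each siCtrl sample and 12 in each siKDM6B33 sample. SOX9 (0% and 0% against 33.8% and 16.9%) and RUNX2 (4.80% and 8.20% against 18.3% and 18.6%) were gained, and neither call nor that of DBH held at equal covered length. In the longer lists of state genes, 1 of 24 adrenergic and 2 of 20 mesenchymal genes were gained and none was lost. No gene of either list was gained at equal covered length, where 1 mesenchymal gene was lost. At an equal number of islands, 1 adrenergic gene was gained and 1 lost, and no mesenchymal gene was called. In lists this short, the 3.16% gained among all genes amounts to less than a single gene. PRRX1 had 19.8% and 18.0% against 24.1% and 34.5%, and FOSL1 had 52.1% and 51.0% against 42.3% and 49.9%.

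The height of the mark within kept regions was read from narrow-peak summits. In 3352 of the 6742 kept regions all 4 samples had a narrow peak, and the highest summit of each was used. The median summit held 12 tags in both siCtrl samples and 13 in both siKDM6B33 samples. Divided by each sample's background, the median height was 304 and 299 times background in siCtrl and 241 and 246 in siKDM6B33, a difference of -0.307 on the log2 scale between group means of 8.24 ± 0.0149 and 7.93 ± 0.0185 (SD, n = 2 each, exact permutation p = 0.333), and this order turned to 0.0584 on the log2 scale of the fold as deposited and to 0.115 in tags. Without siCtrl 1, siCtrl 2 or siKDM6B33 1 the difference over background was -0.149, -0.170 and -0.169. By height over background, 1758 regions were lower in both siKDM6B33 samples (52.4%) and 313 were higher (9.34%). In tags the balance was the other way, with 598 lower (17.8%) and 877 higher (26.2%). A tag was worth 25.3 and 24.9 times background in siCtrl and 18.6 and 18.9 in siKDM6B33, so heights move in steps of that size.

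**Figure D5:**
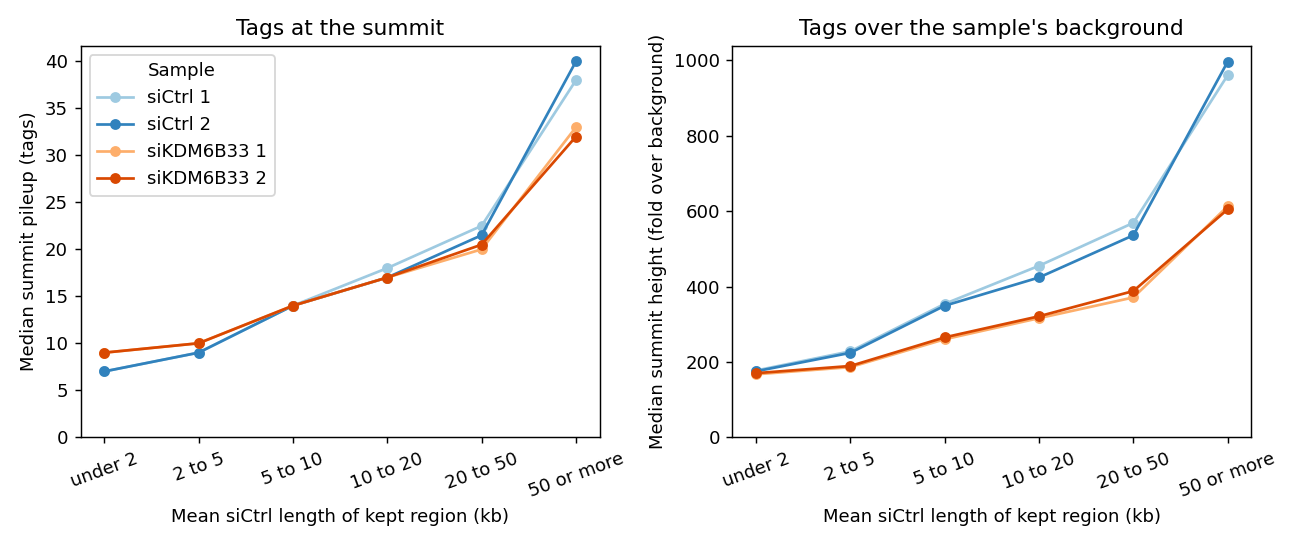
Median highest summit of kept regions in tags (left panel, vertical axis) and in multiples of the sample's background (right panel, vertical axis) by the mean siCtrl length of the region (horizontal axis), with a line for each of the 4 samples. In regions of 50 kb or more the siKDM6B33 samples lie below siCtrl in both panels, and in regions under 2 kb they lie above siCtrl in tags and slightly below in multiples of background.

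Over background the difference was larger in wider regions, whereas in tags its sign turned with width, from a median log2 difference of 0.211 in regions under 2 kb to -0.0760 in those of 50 kb or more. In 35 kept regions of at least 50 kb, the median summit held 38.0 and 40.0 tags in siCtrl and 33.0 and 32.0 tags in siKDM6B33, which was lower on either scale (961 and 997 against 613 and 605 times background). In regions of 20 to 50 kb it held 22.5 and 21.5 tags against 20.0 and 20.5, and in regions under 2 kb 7.0 tags in both siCtrl samples against 9.0 in both siKDM6B33 samples. Of the 35 widest, 30 were lower in both siKDM6B33 samples over background and 1 was higher. Among 1109 regions that were longer in both siKDM6B33 samples and had summits in all 4, 435 had lower (39.2%, against 52.4% of all kept regions with summits) and 175 had higher summits over background (15.8%, against 9.34%). In tags, 125 of them were lower (11.3%, against 17.8%) and 423 higher (38.1%, against 26.2%).

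Regions were ranked by the gap in height over background between the nearest samples of the 2 groups. Of those higher in siKDM6B33, the region in SH3RF3 on chromosome 2 had 152 and 125 times background in siCtrl and 371 and 454 in siKDM6B33 (log2 difference 1.58), a region 38.6 kb from PSD2 on chromosome 5 had 101 and 74.8 against 316 and 246, and the region of the ephrin receptor gene EPHA3 had 177 and 175 against 353 and 378. A region 124 kb from COL4A1 (75.9 and 74.8 against 167 and 151) and one 54.6 kb from CYLD (127 and 175 against 334 and 340) completed the first 5. Of those lower in siKDM6B33, the first were a region 26.7 kb from DMBX1 on chromosome 1 (759 and 748 against 223 and 246, log2 difference -1.69) and that of PRMT8, an arginine methyltransferase gene of neurons (1189 and 1172 against 427 and 454). ESPN (1012 and 1122 against 408 and 397), the epidermal factor gene GRHL3 (228 and 374 against 74.3 and 94.5) and SIX6, an eye homeobox gene (683 and 698 against 260 and 284), followed. By the difference of group means, the PSD2 region (1.68) lay beyond that of SH3RF3, and DOCK3 (506 and 399 against 167 and 94.5, -1.84) and GRHL3 (-1.80) lay beyond the DMBX1 region. All of these were chosen for their difference, on the scale divided by background.

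Gained regions held less CpG than lost or kept regions, but about as much as the 6823 regions called in other combinations of samples. The ratio of observed to expected CpG had a median of 0.220 in gained regions (quartiles 0.177 and 0.271), 0.288 in lost regions (0.200 and 0.622) and 0.333 in kept regions (0.242 and 0.477). It was 0.227 in the other regions (0.179 and 0.298) and 0.236 over the whole of the 23 chromosomes. GC content was 46.7% in gained, 47.8% in lost, 49.1% in kept and 46.2% in the other regions, against 40.9% over the chromosomes. The difference in median ratio between gained and lost regions, -0.0680, was -0.271 at an equal number of islands and -0.0322 with islands of at least 2 kb. The upper quartile of the lost regions is in the range of CpG islands, and 30.0% of lost regions had a gene start, as given above. Regions of the same 4 samples are not independent, so these are descriptions.

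H3K4me1, the mark of enhancers and promoter flanks, was measured after the same knockdown and was not used to choose the regions. Its islands covered 103 and 98.6 Mb in siCtrl and 115 and 114 Mb in siKDM6B33. They held 1.77% and 1.70% of the length of gained H3K27me3 regions in siCtrl and 2.08% and 2.02% in siKDM6B33, and 11.6% and 11.8% of that of lost regions against 16.6% and 17.7%. In kept regions the values were 7.29% and 7.26% against 14.2% and 14%. H3K4me1 islands thus covered more of every class after knockdown, most in proportion in kept regions, and gained regions held the least in every sample. The groups did not overlap in any class (smallest possible exact p = 0.333). At gene level, mean H3K4me1 coverage of the 53 lost genes was 11.4% and 11.9% in siCtrl and 22% and 22.1% in siKDM6B33, that of the 634 gained genes 2.82% and 3.02% against 4.42% and 3.96%, and that of all uncalled genes 9.67% and 9.45% against 14.9% and 14.8%.

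The H3K27me3 lists from cells treated with DMSO, the solvent control of the GSK-J4 experiment, give a second set of controls that the regions were not chosen on. Of the 3528 gained regions, 33 (0.935%, Wilson 95% interval 0.667% to 1.31%, which covers counting error only) were called in both DMSO samples (8 of 192, 4.17%, at equal covered length), whereas 6.00% of lost and 44.2% of kept regions were. Of the 6823 regions called in other combinations of samples, 1.76% were, so a low share was shared by that class. Both DMSO samples called 58.3 and 64.6 Mb, more than the siCtrl samples, in islands of wider median (6.60 and 7.0 kb). After GSK-J4, 1.11% of the gained, 6.67% of the lost, 47.4% of the kept and 1.85% of the other regions were called in both samples. The shares of gained regions were therefore low in that experiment with the inhibitor as without it.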

How the data were processed

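CUT&Tag for H3K27me3 was analysed in 2 siCtrl and 2 siKDM6B33 samples of BE2C cells. Per the study's methods, reads were aligned to hg19 with BWA 0.7.12, duplicates were marked with Picard 1.65, reads were filtered with SAMtools 1.3.1 and fragments of 150 to 2000 bp were kept. SICER 1.1 called islands in each sample separately (window 200 bp, gap 600 bp, effective genome 0.86, FDR 1e-05) and MACS2 called narrow peaks (q 0.05). The submitters' processing notes name MACS2 2.1.1, while the study's methods name another version. The authors deposited islands with a score per island, used here only to order islands, and narrow peaks with a fold enrichment (a ratio of pileup to local background) and −log10 p and q values. A spike-in scaling described in the methods acted on reads and is not in the island lists.

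Islands on chromosomes 1 to 22 and X were analysed with Python 3.11.15, pandas 2.3.3 and SciPy 1.17.1. Genes and starts came from GENCODE 44 lifted to GRCh37, and sequences from the GRCh37 assembly. Summit tags and background were solved from the fold and −log10 p of each narrow peak (tolerance 0.001), and the lowest background among the 20 commonest value pairs was taken as the sample's. Depth in reads is unknown. Groups were compared by non-overlap of samples and exact two-sided permutation tests. The call rule was run on simulated data: 144 of 145 genes planted as gained and 133 of 133 planted as lost were recovered among 20090 genes. All simulated lists came from the siCtrl 1 list with ends moved slightly, and both samples of a group got the same planted islands. They held no difference in covered length between groups like that of the data. The recovery therefore checks the working of the rule and says nothing about the calls made here. Alternatives joined islands within 2 kb, cut lists to equal covered length or number, used islands of at least 2 kb, changed limits, replaced islands by narrow peaks, or left out the MYCN interval or each sample. Named genes were the 12 gained and 12 lost genes with the largest gap between nearest samples (at most 1 per merged region), up to 2 per list in each direction, genes the study discusses, and the widest, most extended, most contracted, most raised and most lowered regions. The members and lists were chosen with earlier results of these data known. Lists of neighbouring families, 1-Mb windows, 10-Mb stretches, counts of regions at the other list lengths or without each sample, and counts of summits in tags and in longer regions were added after the values were seen. The replicate numbers of the labels did not pair samples (correlation of deviations -0.0148 over 5676 genes). Values of some marker genes and the bases of 1 kept region are not reported here.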

Additional observations from a re-analysis of the deposited data

Results flagged for a closer look

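Islands outside chromosomes 1 to 22 and X (chromosome Y and the mitochondrial genome) were in no comparison above. They numbered 4 and 5 in the siCtrl samples and 6 and 7 in the siKDM6B33 samples, covering 20.2 and 24.4 kb against 25 and 29.8 kb, so both siKDM6B33 samples lay above both siCtrl samples in data that were not analysed. The ratio of 1.23 was below the 1.64 over the chromosomes analysed.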

How the results depend on the processing

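Of 127 alternative values, 81 lay within 1.5 times the reported value, 44 differed by more without turning its direction (among them the CpG difference taken as GC content, which is in another unit) and 2 turned its direction. The counts of chromosomes stayed within 1.5 times under every alternative run. The differences in length in islands of 20 kb or more, in its share and in median width kept their direction but not their size. Cutting the lists drops narrower islands from the siKDM6B33 samples, so those settings could only widen the last 2 differences. The difference in length (4.48 Mb) was 13.5 Mb with islands joined, 12.6 Mb with 10 kb as the limit and 0.832 Mb with 50 kb. The difference in share (0.655 points) was 5.22 with islands joined, 8.36 at equal covered length, 2.53 at an equal number, 2.43 with 10 kb as the limit and 0.0233 with 50 kb, where the groups overlapped. The difference in median width (0.400 kb) was 3.40 kb at equal covered length and 1.60 kb at an equal number. The summit difference turned to 0.0584 with the fold as deposited and to 0.115 in tags (chosen after seeing the data). Genes gained and lost were 996 and 129 at 5 points, 296 and 7 at 20 points and 184 and 310 at equal covered length, and 175 were lost at an equal number of islands. With narrow peaks both counts were 0, and the part of peak length in this was not tested. Starts gained and lost were 46 and 779 at equal covered length, 135 and 750 at an equal number, and 581 and 231 with narrow peaks. The share of newly covered length inside regions also called in a control was 54.2% with islands joined, 80.0% at equal covered length and 50.3% at an equal number. The CpG difference between gained and lost regions (-0.0680) was -0.271 at an equal number and -0.0322 with islands of at least 2 kb. Gained regions called in both DMSO samples were 4.17% at equal covered length.

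Leaving out each sample in turn gave 801 to 915 genes gained, 99 to 118 lost, 435 to 507 starts gained, 159 to 207 starts lost, 35.3% to 44.3% inside regions called in a control a CpG difference of -0.0668 to -0.0395 and a summit difference of -0.310 to -0.149. Calls become easier with fewer samples. With the replicate number as a block, the differences were 4.48 Mb, 0.655 percentage points, 0.400 kb and -0.307 on the log2 scale, as without it, with a smallest possible p of 0.5. Since the numbers mark no shared source, the block says nothing more. The deposited lists hold no read depth, so a change in called length cannot be separated from the higher background of the siKDM6B33 samples.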
